A study of Mus musculus with 12 samples.

Results

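Adipokines are proteins that fat tissue releases into the blood. The genes followed here were Lep (leptin), Adipoq (adiponectin), Retn (resistin), Cfd (adipsin, or complement factor D), Rbp4 (retinol binding protein 4), Nampt (the NAD-making enzyme also called visfatin), Retnla (resistin-like alpha) and Itln1 (intelectin 1, or omentin). These 8 genes were chosen by symbol out of 22276 symbols in the table, and all 8 had a row. RNA was sequenced from white (WAT) and brown (BAT) adipose tissue, liver and quadriceps muscle of male C57BL/6J mice, with 1 library for each organ in each of 3 groups and 12 libraries in all. NCD-veh mice ate a normal chow diet and received vehicle. HFD-veh mice ate a high-fat diet from 8 wk of age and received vehicle, and HFD-ncls mice ate the same diet and received narciclasine (ncls), a plant alkaloid, by weekly oral gavage at 1 mg/kg from 10 to 17 wk of age, the schedule on which the other groups received vehicle. A chow-fed group given ncls was not analysed here, so the ncls comparison holds only on the high-fat diet. The fat depot that gave the WAT and the number of mice behind a library were not given in the sources used here.

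Levels are FPKM, fragments per kilobase of transcript scaled to all mapped fragments, as the authors deposited them, so a level can be compared between genes of different length. A difference is given as a log2 ratio of FPKM + 0.1, and a gene was compared where at least 1 of the 2 libraries reached 1 FPKM. A gene is called higher or lower where the ratio passed 2-fold. With 1 library per organ and group there was no replicate, no error between animals and no test, so every call describes 2 libraries. Approximate depth, read from the steps of low FPKM values, ran from 18700000 to 26400000 fragments per library. Where 3 values stand in a row, they belong to the NCD-veh, the HFD-veh and the HFD-ncls library in that order.

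Leptin is a hormone that falls in the blood when fat stores shrink and acts mainly on the brain to limit food intake. Adiponectin is made almost only by fat cells and acts on liver and muscle through AdipoR1 and AdipoR2. Adipsin is the protease that starts the amplifying step of the alternative complement pathway, and resistin is a small cysteine-rich hormone that mouse fat cells secrete. Rbp4 carries retinol in blood and comes mostly from the liver. Nampt makes the nucleotide that cells turn into NAD, and Retnla and intelectin come largely from cells other than fat cells, Retnla from alternatively activated macrophages among others and intelectin from stromal and lining cells of visceral fat in humans.

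All 8 are protein-coding genes, spread over 7 chromosomes of the mm9 build. The annotation places Lep at chr6:29010220-29023877 (plus strand), Adipoq at chr16:23146609-23158101 (plus strand), Retn at chr8:3655770-3660110 (plus strand), Cfd at chr10:79353598-79355401 (plus strand). It places Rbp4 at chr19:38191110-38199811 (minus strand), Nampt at chr12:33505200-33538234 (plus strand), Retnla at chr16:48842665-48844574 (plus strand), Itln1 at chr1:173448253-173465425 (minus strand).

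The organ labels were checked on marker lists. Ucp1, the uncoupling protein of brown fat, was at 770, 768 and 740 FPKM in BAT and at no more than 3.92 FPKM in any other library. It was 1 of 8 genes of a brown fat list, and not all of these were highest in BAT. Elovl3 was at 154, 41.3 and 80.1 FPKM in liver and at 18.6, 7.39 and 6.52 in BAT. All 12 genes of a fat cell list were above 1 FPKM in the 6 fat libraries. Some libraries held transcripts of another organ. The summed FPKM of 10 liver genes in muscle was 1.85, 513 and 0.768, and in WAT it was 6.95, 53.8 and 204. The 10 muscle genes of another list summed to 2110, 872 and 125 FPKM in BAT and to 2.14, 69.0 and 3.12 FPKM in liver. These values are given again where they sit beside an adipokine.

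In WAT, Cfd was the adipokine that differed most between diets, and Lep differed in the opposite direction. Cfd was at 8163 FPKM in NCD-veh, 653 FPKM in HFD-veh and 753 FPKM in HFD-ncls. It was the gene of rank 3 from the top of the NCD-veh WAT library and of rank 44 in HFD-veh. Lep was at 300.2 FPKM in NCD-veh, 1199 FPKM in HFD-veh and 1062 FPKM in HFD-ncls. Both high-fat libraries were thus on the same side of the chow library for both genes. In bulk tissue, fewer cells of a type and less RNA per cell cannot be told apart. Of the 7 adipokines compared in WAT between HFD-veh and NCD-veh, 1 was higher (Lep) and 1 lower (Cfd), where 9.11% of 12208 genes passed 2-fold in either direction (5.24% higher and 3.87% lower). Between HFD-ncls and HFD-veh none of the 7 passed 2-fold in WAT, where 1.7% of 12152 genes did (1.49% higher and 0.214% lower).

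**Figure D1:**
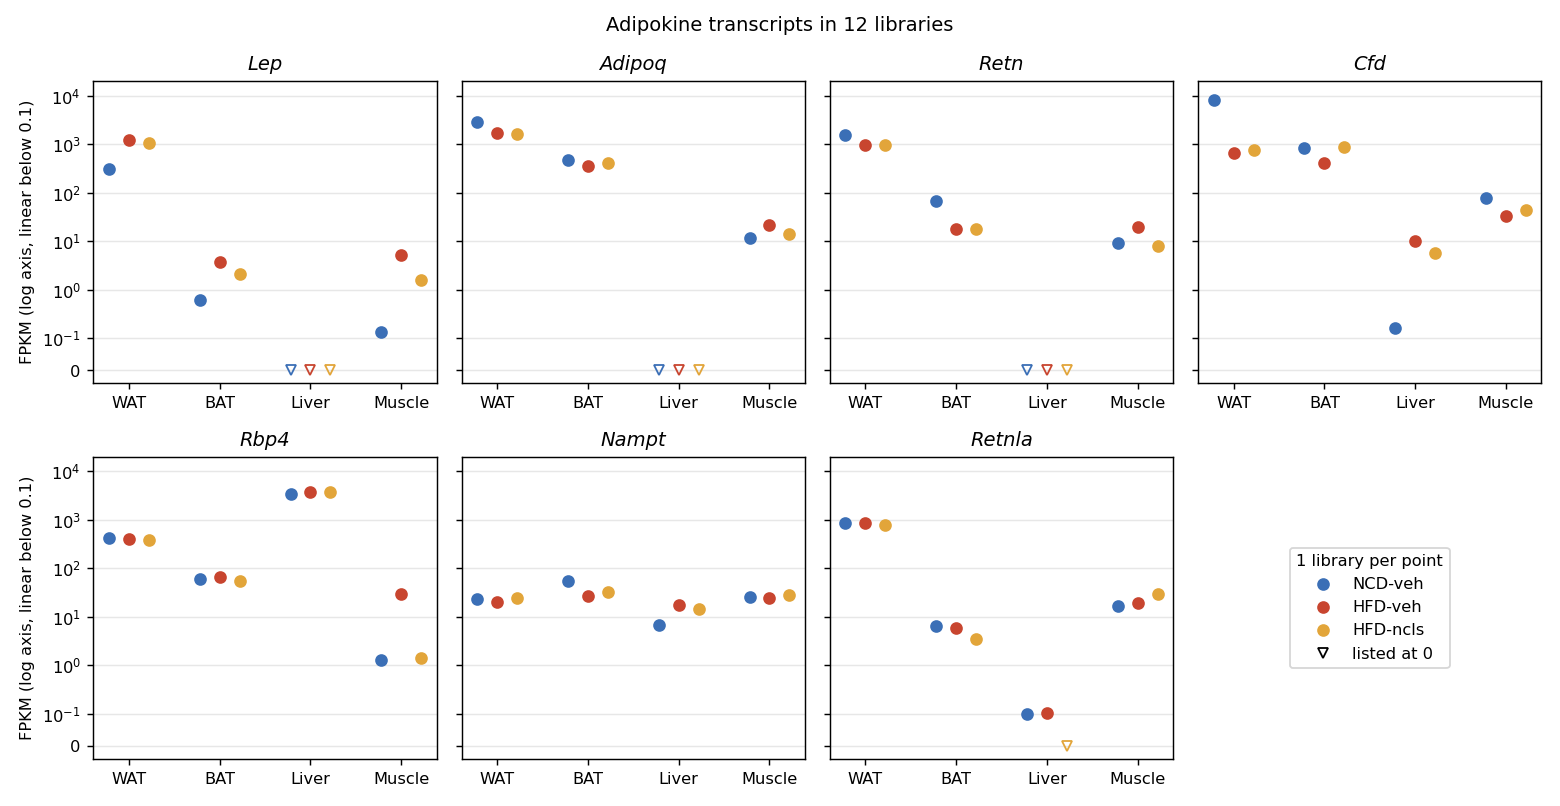
FPKM of the 7 adipokines with a value above 0, on a log10 axis linear below 0.1, with values of 0 drawn as open triangles, in each of the 12 libraries grouped by organ. Each point is 1 library and there are no error bars, because no combination was replicated. Lep in WAT runs from 300.2 in NCD-veh to 1199 in HFD-veh, and Cfd in WAT from 8163 to 653.

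Leptin had the largest ratio of WAT to BAT among the 7 adipokines measured, and it was higher on the high-fat diet in WAT, BAT and muscle. In BAT and muscle its chow value was under the filter of 1 FPKM. Lep was therefore compared there only through the high-fat libraries, where it was high, and its calls and ranks in these organs are to be read with that. In BAT, Lep was at 0.597 FPKM in NCD-veh, 3.68 FPKM in HFD-veh and 2.13 FPKM in HFD-ncls. In quadriceps muscle it was at 0.133, 5.04 and 1.60 FPKM, and it was listed at 0 in the 3 liver libraries. The chow library was the lowest of the 3 in WAT, BAT and muscle, and HFD-veh the highest. HFD-veh against NCD-veh, the log2 ratio of Lep was 1.997 in WAT, 2.44 in BAT and 4.47 in muscle, which is 3.99-fold in WAT and 6.17-fold in BAT. In BAT that ratio had rank 17 from the highest of 10443 genes. The muscle ratio rests on a chow value of about 10.9 fragments, against about 434 in HFD-veh and 135 in HFD-ncls. HFD-ncls against HFD-veh, Lep had log2 ratios of -0.18 in WAT and -0.76 in BAT, within 2-fold, and of -1.60 in muscle, where it was 3.15-fold lower. HFD-ncls against NCD-veh, the log2 ratio of Lep was 1.82 in WAT, 1.68 in BAT and 2.87 in muscle.

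The leptin receptor and its signalling genes were low or level in fat. Lepr, the receptor, stayed under 1 FPKM in all 12 libraries and was at 0.684, 0.354 and 0.649 FPKM in WAT. None of 8 leptin signalling genes passed 2-fold in WAT in either the diet or the ncls comparison. In BAT, 1 of the 8 was higher in HFD-veh than in NCD-veh. This was Socs3, a feedback inhibitor of cytokine receptors, at 0.431 FPKM in NCD-veh, 2.70 FPKM in HFD-veh and 2.28 FPKM in HFD-ncls. Socs3 passed the filter of 1 FPKM there only through HFD-veh, so its call is not independent of the filter. The median log2 ratio of the 8 genes in that comparison was -0.02, against -0.04 over all genes.

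Adiponectin differed less. Adipoq was at 2849, 1692 and 1600 FPKM in WAT, among the 14 highest genes of each library. In BAT it was at 478, 350 and 410 FPKM, and in liver it was listed at 0 in all 3 libraries. Chow was the highest of the 3 in both fat organs, but no ratio passed 2-fold. The log2 ratio of HFD-veh against NCD-veh was -0.75 in WAT and -0.45 in BAT, and of HFD-ncls against HFD-veh -0.08 in WAT and 0.23 in BAT. The 12 fat cell genes had medians of -0.23 and -0.07 in the same diet comparisons, and none of them passed 2-fold.

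The partners of adiponectin were also within 2-fold in the diet and ncls comparisons of both fat organs. Adipor1 was between 82.2 and 85.0 FPKM in the 3 WAT libraries and between 56.9 and 71.6 in BAT, and Adipor2 was between 152 and 179 in WAT and between 71.0 and 78.2 in BAT. Cdh13 encodes T-cadherin, which binds adiponectin at the cell surface, and was at 12.03, 22.8 and 29.2 FPKM in WAT, a log2 ratio of 0.92 for the diet. Among the genes for adiponectin assembly and its C1q/TNF relatives, 10 were compared for diet and 11 for ncls in WAT and 8 for each in BAT, and none passed 2-fold.

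Resistin separated the fat organs. Retn was at 1551, 963 and 967 FPKM in WAT, and at 65.5, 17.4 and 18.0 FPKM in BAT. Chow was again the highest library in both organs, and the high-fat libraries lay close to each other. HFD-veh against NCD-veh, the log2 ratio was -0.69 in WAT, within 2-fold, and -1.91 in BAT, where Retn was 3.77-fold lower, at rank 36 from the lowest of 10443 genes. The ncls ratios were 0.01 in WAT and 0.05 in BAT. Of the family, Retnlb was listed at 0 throughout and Retnlg, a gene of blood and marrow cells, was at 1.79, 1.89 and 0 FPKM in WAT.

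Retnla differed between organs and little between groups. It was at 867, 875 and 774 FPKM in WAT and at 6.31, 5.94 and 3.44 FPKM in BAT. No ratio between groups passed 2-fold in fat. Macrophage genes did differ in the same WAT libraries, since 6 of 9 were higher and none lower in HFD-veh than in NCD-veh, with a median log2 ratio of 1.43, against 0.03 over all genes. Cd68, a lysosomal protein of macrophages, was at 49.5, 198 and 222 FPKM. A list of alternative activation and eosinophil genes had a median of 0.15, with 1 of 8 higher and 2 lower. The higher one was Chi3l3, a marker of alternative activation, at 0.295 FPKM in NCD-veh and 1.69 in HFD-veh, while Mgl2 was at 30.8 and 53.003 FPKM, within 2-fold. The lower ones were Ccl24, at 17.8 FPKM in NCD-veh and 4.40 in HFD-veh, and Ccr3, which encodes the eosinophil chemokine receptor, at 1.11 and 0.352 FPKM. Chi3l3 and Ccr3 each passed the filter of 1 FPKM only through the library where they were high, so these calls are not independent of it.

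Adipsin differed in BAT as well, with another order of the groups. In BAT, Cfd was at 821 FPKM in NCD-veh, 404 FPKM in HFD-veh and 853 FPKM in HFD-ncls. The HFD-veh library was the lowest, and HFD-ncls and NCD-veh differed by 0.06 on the log2 scale. In WAT, in contrast, HFD-ncls lay beside HFD-veh. HFD-veh against NCD-veh, Cfd was 12.5-fold lower in WAT, a log2 ratio of -3.64, at rank 24 from the lowest of 12208 genes. In BAT that log2 ratio was -1.02, just past 2-fold. HFD-ncls against HFD-veh, Cfd had a log2 ratio of 0.20 in WAT, and in BAT it was 2.11-fold higher, a log2 ratio of 1.08, at rank 22 from the highest of 10329 genes.

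The summed muscle genes in BAT were at 2110, 872 and 125 FPKM. Cfd in muscle itself was at 76.7 FPKM in NCD-veh, so the 1.96% share at which muscle genes appeared in that BAT library corresponds to 1.501 FPKM of the 821 measured. For HFD-veh and HFD-ncls the corresponding values were 0.26 and 0.0509 FPKM. For Nampt, muscle RNA at these shares corresponds to 0.493, 0.187 and 0.0322 FPKM in BAT. The part of muscle RNA in the differences between BAT libraries was not tested.

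Most other genes of the alternative complement pathway were within 2-fold in WAT and BAT. In WAT none of 5 compared passed it for diet or for ncls. C3, the protein that the adipsin-made convertase cleaves, was at 414, 354 and 476 FPKM in WAT. Cfb, the substrate of adipsin, was at 121, 158 and 165 FPKM. In BAT, 1 of 4 was lower in HFD-veh, namely C3, at 129 FPKM in NCD-veh, 40.0 FPKM in HFD-veh and 55.0 FPKM in HFD-ncls. C3ar1, the receptor of the C3a fragment, was the 1 of 6 receptors and binding partners higher in HFD-veh WAT, at 8.64, 21.6 and 23.5 FPKM.

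Across BAT as a whole, 4 of 7 adipokines passed 2-fold between HFD-veh and NCD-veh, 1 higher (Lep) and 3 lower (Retn, Cfd and Nampt), where 4.29% of 10443 genes passed in either direction (2.28% higher and 2.01% lower). Lep reached 1 FPKM in BAT only on the high-fat diet. Cfd and Nampt were at log2 ratios of -1.02 and -1.03. Once the ratios were rescaled by the median over all genes, both were within 2-fold and the count was 2. With a filter of 5 FPKM, Lep was not compared in BAT and the count was 3, all lower. HFD-ncls against HFD-veh, 1 of 7 passed (Cfd, higher), where 1.97% of 10329 genes did (0.261% higher and 1.7% lower). Relative to Adipoq the call of Cfd was lost, at 0.85. The count was then 0 with the pseudocount and 2 without it, since Lep and Retnla per Adipoq were each lower in HFD-ncls BAT, at -1.02 on the log2 scale.

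**Figure D2:**
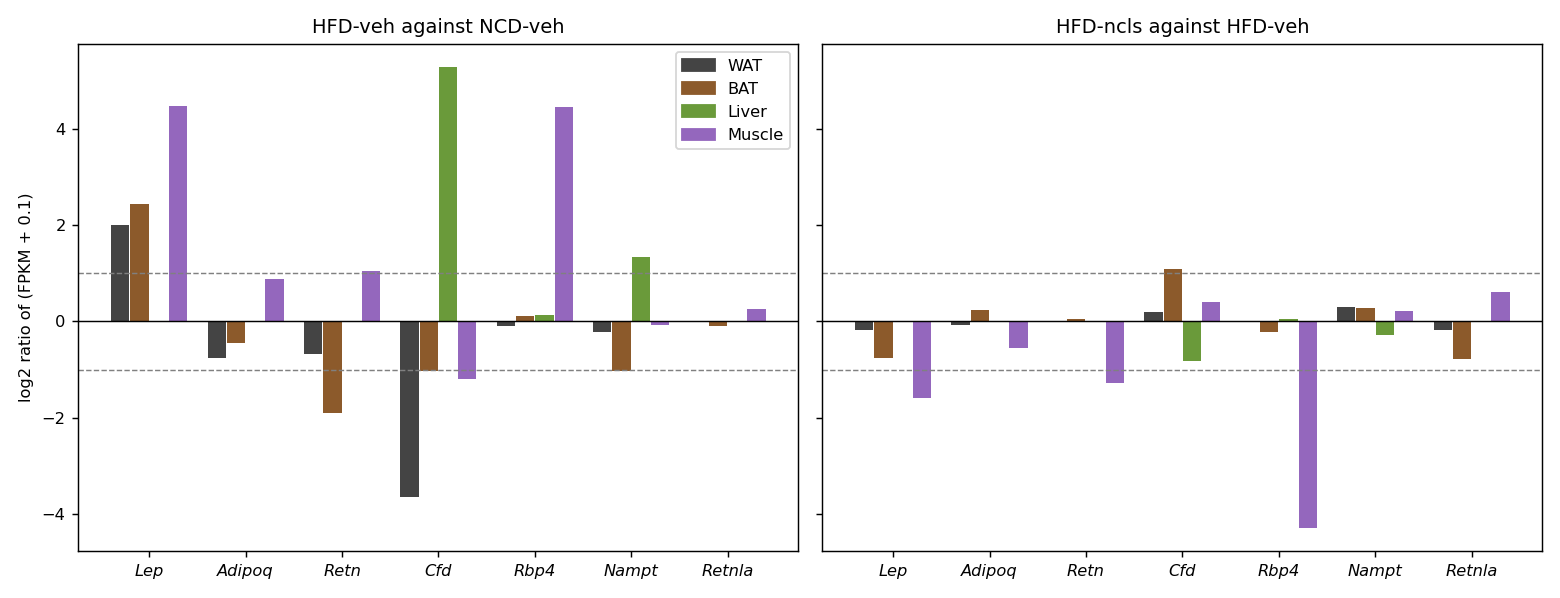
Log2 ratios of FPKM + 0.1 for the adipokines in the diet comparison (HFD-veh against NCD-veh) and the ncls comparison (HFD-ncls against HFD-veh) in each organ, 1 ratio per gene and organ, with lines at 2-fold in each direction. Cfd in WAT is at -3.64 for diet and 0.20 for ncls, and Lep in WAT is at 1.997 and -0.18.

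The upstream sequences of 4 adipokines that were far higher in fat than in liver (Lep, Adipoq, Retn and Cfd) are shown because their levels differed between groups in unlike ways. They are the 250 bases before the RefSeq transcript start (GRCm38.p6, plus strand for each gene), at chr6:29059971-29060220 for Lep, chr16:23146286-23146535 for Adipoq, chr8:3655520-3655769 for Retn and chr10:79890603-79890852 for Cfd. Capitals mark matches to a motif searched on both strands, with positions counted back from -1, the last base before the start.
Lep: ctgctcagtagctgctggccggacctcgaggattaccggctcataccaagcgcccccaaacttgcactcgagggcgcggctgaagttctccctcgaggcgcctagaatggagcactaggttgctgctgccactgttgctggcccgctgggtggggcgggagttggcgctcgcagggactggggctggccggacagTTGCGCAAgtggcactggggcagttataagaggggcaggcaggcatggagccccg
Adipoq: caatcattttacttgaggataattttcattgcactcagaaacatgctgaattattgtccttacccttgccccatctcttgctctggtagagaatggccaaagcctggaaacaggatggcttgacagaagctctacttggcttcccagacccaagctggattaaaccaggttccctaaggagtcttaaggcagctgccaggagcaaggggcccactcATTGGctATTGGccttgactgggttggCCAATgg
Retn: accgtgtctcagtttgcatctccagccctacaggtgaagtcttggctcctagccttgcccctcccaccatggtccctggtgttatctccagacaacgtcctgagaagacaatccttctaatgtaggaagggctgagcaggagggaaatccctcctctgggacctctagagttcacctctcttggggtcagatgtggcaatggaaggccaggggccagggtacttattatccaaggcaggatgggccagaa
Cfd: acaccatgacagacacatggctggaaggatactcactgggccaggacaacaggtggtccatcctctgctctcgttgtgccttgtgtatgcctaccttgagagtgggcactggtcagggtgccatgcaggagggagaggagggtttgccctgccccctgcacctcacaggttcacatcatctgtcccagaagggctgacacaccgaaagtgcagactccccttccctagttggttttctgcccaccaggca
The motifs were the C/EBP core TTGCNNAA, the TATA box TATAAA, the CCAAT box CCAAT and the PPAR element, which is 2 copies of AGGTCA with 1 base between them. Lep held the C/EBP core as TTGCGCAA, which reads the same on both strands, at position -55, and 9.56% of 32851 promoters of the same length held that motif. Adipoq held the CCAAT box at -34 and -27 on the reverse strand and at -7 on the forward strand, and 33.8% of promoters held one. No matches overlapped between motifs. Retn and Cfd held none of the 4 motifs in this window, and the TATA box and PPAR element were in 12.4% and 0.0335% of promoters. Retnla, also far higher in WAT than in liver, is not shown. Its window of the same length held 1 match to the C/EBP core and 1 to the TATA box. A match of letters is a description of sequence and says nothing of what binds there.

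Retinol binding protein 4 was highest in liver. Rbp4 was at 3365, 3667 and 3805 FPKM in liver, at 421, 394 and 389 in WAT and at 59.6, 64.7 and 55.4 in BAT. The levels of the 3 organs did not overlap, and no ratio between groups passed 2-fold in any of them. In muscle, Rbp4 was at 1.27 FPKM in NCD-veh, 29.7 FPKM in HFD-veh and 1.42 FPKM in HFD-ncls, with log2 ratios of 4.45 for diet and -4.29 for ncls. The liver transcripts of HFD-veh muscle sit beside this value. In that library 9 of the 10 liver genes, those with a value in liver, were at a median of 0.665% of their liver level, from 0.308% to 0.906%, and Rbp4 was at 0.809% of its own. At the median share, liver Rbp4 corresponds to 24.4 FPKM of the 29.7 measured, and in NCD-veh and HFD-ncls muscle to 0.0759 and 0.0137 FPKM.

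Among genes of retinol transport and use, Rbp7 differed in BAT. Rbp7, a retinol binding protein of fat tissue capillaries, was at 5.93, 22.1 and 8.65 FPKM in BAT. It was the 1 of 5 compared that was higher in HFD-veh, and 2 of 5 (Rbp7 and the retinal dehydrogenase gene Aldh1a1) were lower with ncls than in HFD-veh. In WAT, 1 of 7 was higher for diet and 1 of 7 for ncls, in both cases Ttr, which carries Rbp4 in blood and is a liver gene. Ttr was listed at 0 in NCD-veh WAT and was at 2.66 FPKM in HFD-veh and 10.5 FPKM in HFD-ncls. For diet, Ttr was thus compared only through the HFD-veh library. The order was that of the liver list in WAT given above, whose part in it was not tested. Stra6, an Rbp4 receptor, stayed under 1 FPKM in all 12 libraries.

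Nampt had a level of the same order in fat and muscle. It was at 23.3, 19.96 and 24.5 FPKM in WAT, at 54.1, 26.4 and 32.1 in BAT, and at 25.2, 24.0 and 27.8 in muscle. In liver it was at 6.68, 17.1 and 14.2 FPKM. BAT of NCD-veh mice was the highest of the 12 libraries and liver of NCD-veh mice the lowest. The diet ratio was -1.03 in BAT and 1.35 in liver on the log2 scale, and no ncls ratio passed 2-fold. Among the genes of NAD synthesis and use, 1 of 12 was lower in HFD-veh WAT (Nmnat3, an enzyme that completes NAD, at 4.01 FPKM in NCD-veh and 1.84 in HFD-veh), and none of 11 passed 2-fold in BAT.

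Intelectin 1 was listed at 0 in all 12 libraries. Its relatives Itln2 and Itlnb have no row under those symbols. The WAT libraries did hold mesothelial transcripts, with 9 of 9 measured genes above 1 FPKM in each and none of the 9 listed at 0. Upk3b, a membrane protein of the mesothelium, was at 104, 37.8 and 37.3 FPKM. In WAT, 7 of the 9 genes were lower in HFD-veh than in NCD-veh, where 3.87% of 12208 genes were. The median log2 ratio of the 9 was -1.32, against 0.03 over all genes.

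WAT and BAT of the same group were compared next. In NCD-veh, 6 of 7 adipokines were higher in WAT and 1 (Nampt) lower, where 55.7% of 12192 genes passed 2-fold in either direction (48.1% higher and 7.58% lower). In HFD-veh mice 5 of 7 were higher in WAT and none lower, where 57.2% of genes passed (49.9% higher and 7.35% lower). The counts were the same in HFD-ncls mice, where 59.7% of genes passed (53.3% higher and 6.37% lower). These counts are to be read against a shift of the whole table, since the median log2 ratio of all genes was 0.95, 1.00 and 1.10 towards WAT in the 3 groups, and that of the 12 fat cell genes 1.17, 1.21 and 1.21. Lep was far beyond that shift, at log2 ratios of 8.75, 8.31 and 8.90, or 503-fold, 326-fold and 499-fold. Its ratio had rank 3, 4 and 4 from the highest among all genes compared. Retnla was at 7.08, 7.18 and 7.77 and Retn at 4.56, 5.78 and 5.74. Adipoq was nearer, at 2.58, 2.27 and 1.97.

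Cfd stood differently between the fat organs in each group. Its log2 ratio of WAT against BAT was 3.31, 0.69 and -0.18. Nampt was at -1.21, -0.40 and -0.39. With ratios rescaled by the median over all genes, Nampt was lower in WAT in all 3 groups, at -1.40 in HFD-veh and -1.49 in HFD-ncls, and Cfd was lower in HFD-ncls, at -1.28. Adipoq in HFD-ncls was then at 0.87, within 2-fold.

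A ratio to Adipoq within 1 library is not touched by how that library was scaled. Lep per Adipoq was 0.105, 0.708 and 0.664 in WAT. It was 0.00125, 0.0105 and 0.00519 in BAT and 0.0116, 0.238 and 0.112 in muscle. The chow library had the lowest ratio in each of these organs. Between HFD-veh and NCD-veh the ratio was 6.72-fold higher in WAT, 8.43-fold in BAT and 20.5-fold in muscle. The muscle figure rests on about 10.9 fragments of Lep in NCD-veh and the BAT figure on about 51.4. Cfd per Adipoq went the other way, at 2.87, 0.386 and 0.471 in WAT, 1.72, 1.15 and 2.08 in BAT and 6.72, 1.58 and 3.08 in muscle. HFD-veh had the lowest value in all 3 organs, 7.42-fold under NCD-veh in WAT, 1.49-fold in BAT and 4.25-fold in muscle. Retn per Adipoq was 0.544, 0.569 and 0.605 in WAT and 0.137, 0.0497 and 0.0439 in BAT. In WAT the 3 groups thus lay close for Retn, and in BAT chow lay above both high-fat libraries. Adipoq itself differed by diet, at -0.75 in WAT, and a ratio carries that difference with it.

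**Figure D3:**
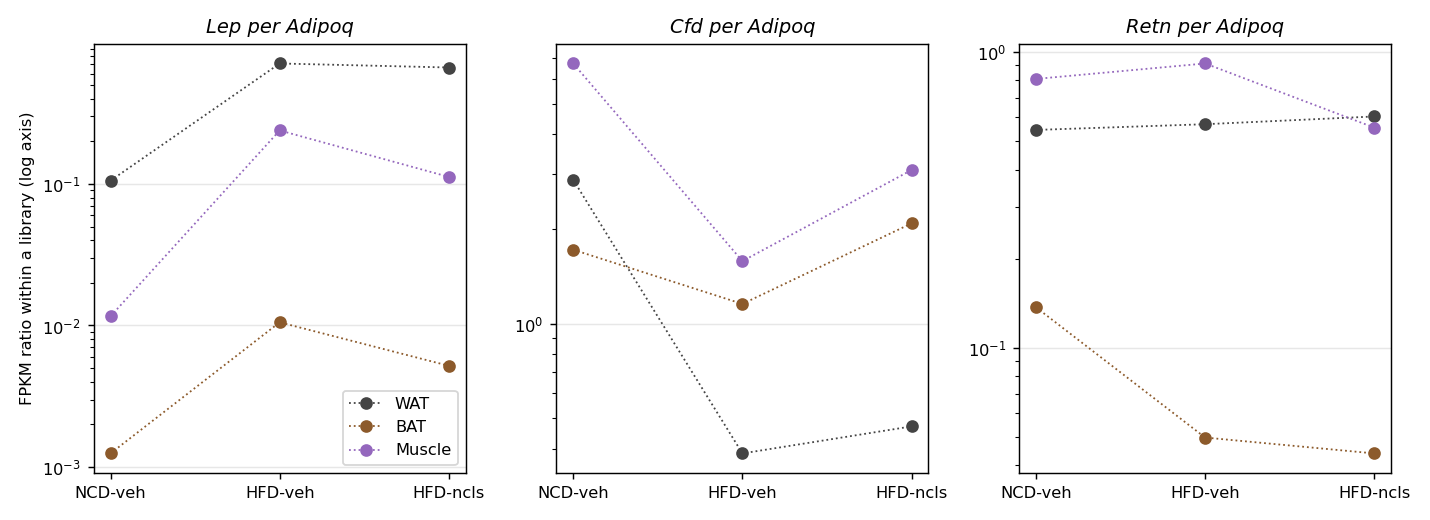
Lep, Cfd and Retn per Adipoq (ratio of FPKM, log10 axis) in WAT, BAT and muscle of the 3 groups, 1 point per library, with dotted lines joining the libraries of an organ. Lep per Adipoq is lowest in the chow library of each organ, and Cfd per Adipoq is lowest in the HFD-veh library of each organ.

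Quadriceps muscle held all 7 adipokines that were above 0 anywhere. Adipoq was at 11.4, 21.1 and 14.3 FPKM in muscle, Retn at 9.24, 19.3 and 7.91, Cfd at 76.7, 33.4 and 43.9 and Retnla at 16.3, 19.6 and 29.9. Adipoq and Retn were highest in HFD-veh, as Lep was, whereas Cfd was lowest there. Fat cell genes were also present. Plin1, which coats lipid droplets, was at 2.02, 4.97 and 3.36 FPKM and Cidec, another droplet protein, at 5.89, 15.2 and 9.77. The list had no common order of groups, since 5 of its 12 genes were highest in HFD-veh and 5 were lowest there. Lpl, the lipoprotein lipase that muscle also makes, was at 91.6, 61.9 and 86.8 FPKM, and the list summed to 505, 501 and 584 FPKM. The 12 fat cell genes were at a median of 1.34%, 2.11% and 1.95% of their WAT level, with 2 of 11 compared over 2-fold higher in HFD-veh than in NCD-veh and none lower, and the 7 adipokines were at 0.596%, 2.24% and 0.892%. The part of fat cell content in these values was not tested.

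In muscle, 4 of 7 adipokines passed 2-fold between HFD-veh and NCD-veh, 3 higher (Lep, Retn and Rbp4) and 1 lower (Cfd, at -1.20), where 4.11% of 9585 genes passed (3.14% higher and 0.97% lower). HFD-ncls against HFD-veh, 3 of 7 were lower (Lep, Retn and Rbp4), where 3.8% of 9694 genes passed in either direction (1.27% higher and 2.53% lower). Lep reached 1 FPKM in muscle only in the high-fat libraries. Retn was near the threshold for diet, at 1.05, and at -1.28 for ncls. Without Rbp4, the adipokine with a liver level far above its muscle level, the counts were 3 of 6 and 2 of 6. Both comparisons share the HFD-veh library, which held the liver transcripts. HFD-ncls against NCD-veh, a comparison without that library, 1 of 7 passed (Lep, at 2.87), where 1.21% of 9514 genes did and 0.893% were higher. Retnla was at 1.88%, 2.24% and 3.86% of its WAT level, and the 9 macrophage genes summed to 19.7, 22.2 and 30.0 FPKM in muscle. Most of that sum was Lyz2, the lysozyme of myeloid cells, at 13.9, 15.6 and 21.7 FPKM, and the list median was 0.498, 0.432 and 0.633 FPKM. Of the 9 genes, 7 were highest in HFD-ncls. The part of macrophage RNA in the Retnla values was not tested.

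**Figure D4:**
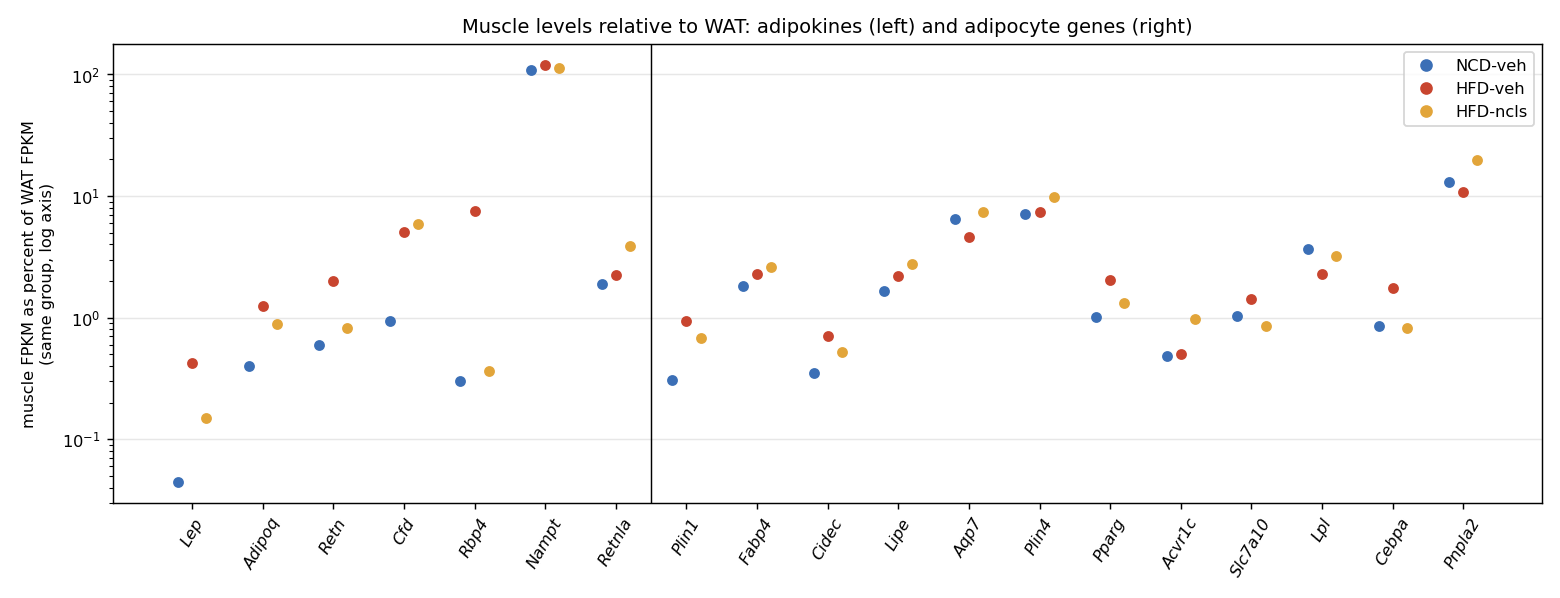
Level in quadriceps muscle as a percentage of the WAT library of the same group, on a log10 axis, for the adipokines and the 12 fat cell genes, 1 point per gene and group. The median of the fat cell genes is 1.34% for NCD-veh, 2.11% for HFD-veh and 1.95% for HFD-ncls.

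Liver held 3 of the adipokines at 1 FPKM or more, Rbp4 and Nampt in all 3 libraries and Cfd only in the high-fat ones. Of these, 2 were higher in HFD-veh than in NCD-veh (Cfd and Nampt), where 5.12% of 10016 genes passed 2-fold (2.86% higher and 2.27% lower), and none passed between HFD-ncls and HFD-veh, where 2.31% of 9956 genes did (1% higher and 1.31% lower). Cfd was at 0.163 FPKM in NCD-veh, 10.2 FPKM in HFD-veh and 5.71 FPKM in HFD-ncls, which is about 3.57, 213 and 125 fragments. Both high-fat libraries were above the chow library, and the diet ratio of Cfd, 5.29 on the log2 scale, had rank 9 from the highest of 10016 genes. Cfd passed the filter of 1 FPKM only through the libraries where it was high, so the count of 2 and this rank are not independent of the filter. Lep, Adipoq and Retn were listed at 0 in the 3 liver libraries. Of the 12 fat cell genes, 8 were at 1 FPKM or more in each liver library, while Plin1 was at 0, 0.0246 and 0 FPKM. Between HFD-veh and NCD-veh, 2 of 8 compared were higher and none lower, with 4 ratios above 0 and 4 below. The higher ones were Cidec, at 1.75, 5.88 and 2.43 FPKM, and Pparg, at 2.81, 7.47 and 6.22. The part of fat cell content in the liver values of Cfd was not tested. The HFD-veh liver library held muscle transcripts at a median of 0.0633% of their muscle level, at which muscle Cfd corresponds to 0.0211 FPKM. Retnla was at 0.0991, 0.103 and 0 FPKM, near the value of a single fragment.

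The genes whose pattern was most like each adipokine were found by Pearson's r of log2(FPKM + 1) over the 12 libraries, among 10112 genes. The 3 libraries of an organ share that organ's profile, so these values mainly follow the organ. They were highest for Ptk2 (0.995), Olfm1 (0.993) and Anxa1 (0.991) with Lep, for Twist1 (0.996), BC029722 (0.993) and Bcl7b (0.992) with Adipoq, and for Lipo1 (0.993), Ilf2 (0.992) and Cdc23 (0.989) with Retn. For Retnla they were Evi5l (0.997), Zfp362 (0.996) and Wls (0.996). Cfd had lower values, with Tiparp (0.974), C330018D20Rik (0.972) and Ift43 (0.965), and Rbp4 was most like Aldh1l1 (0.983), Lgals9 (0.982) and Apoe (0.981), genes that were highest in liver. Nampt had the lowest, with Mrps14 (0.930), Pdha1 (0.897) and Tmem70 (0.894).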

How the data were processed

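Gene expression was measured by RNA-seq in 4 organs of 3 groups of mice (1 library for each combination), and each library was grouped from its sample label. Per the labels and methods, the authors used TopHat (mm9) and Cufflinks (RefSeq genes), and the deposited values are FPKM for 22276 symbols. No scaling between libraries beyond FPKM is given in the sources used here. No count test was applied, since FPKM is not a count and no group had a replicate. A missing value in at least 1 library affected 86 symbols, which were not compared in that organ.

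Differences were computed as log2 of FPKM + 0.1, for genes with at least 1 FPKM in either library. The 2-fold threshold is that of the study's methods, and its p-value criteria could not be applied. Approximate fragments came from the steps of low FPKM values of 247 genes (quartiles of the deepest library 25700000 and 27200000) and annotated transcript lengths. Genes named were the 8 adipokines, the 3 most like each, direct partners and, in each list, up to 4 genes with the largest ratio. The members and lists were chosen with earlier results of these data known. Promoter sequences were taken from RefSeq (GRCm38.p6) by gene symbol, because no mm9 promoters were in that table. Computations used Python 3.11.15, numpy 2.4.6, pandas 2.3.3 and matplotlib 3.10.9. Alternatives covered the pseudocount, the filter and the scaling. Some listed genes are not reported here.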

Additional observations from a re-analysis of the deposited data

Results flagged for a closer look

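Some adipokines had over 2-fold ratios of opposite sign in different organs for the same contrast, HFD-veh against NCD-veh. With 1 library per organ and group these differences between organs were not tested. Cfd was lower in WAT (-3.64) and higher in liver (5.29), a difference of log2 ratios of -8.93. BAT (-1.02) and liver differed for Cfd by -6.31, and liver and muscle (-1.20) by 6.48. The liver values of Cfd rest on about 3.57 fragments in NCD-veh, and Cfd reached 1 FPKM in liver only on the high-fat diet. Nampt was lower in BAT (-1.03) and higher in liver (1.35), a difference of -2.38. Retn was lower in BAT (-1.91) and higher in muscle (1.05), a difference of -2.96.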

How the results depend on the processing

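Alternatives were a pseudocount of 1 in place of 0.1, other filters on FPKM, rescaling by the median ratio of all genes or by the fat cell list, and levels relative to Adipoq, the last chosen after seeing the data, as was leaving out Rbp4 in muscle. Of 392 values of single adipokines recomputed under the alternatives other than those 2, 379 stayed on the same side of the 2-fold threshold. A further 7 fell back within it, 6 newly passed it and 0 changed sign after a call. Sign was not checked for values within 2-fold, and some near 0 changed it. Retnla in WAT for diet, for example, was at 0.014, and at -0.014 once rescaled by the median ratio. The count in BAT for HFD-veh against NCD-veh went from 4 to 2 under both rescalings and relative to Adipoq, with Cfd and Nampt then within 2-fold, and to 3 with a filter of 5 FPKM, which left out Lep. The count in BAT for HFD-ncls against HFD-veh went from 1 to 0 relative to Adipoq with the pseudocount kept, and to 2 without it, through Lep and Retnla. In muscle, Retn per Adipoq was within 2-fold in both comparisons. The count in liver for HFD-ncls against HFD-veh went from 0 to 1 without a filter, through Retnla at 0.103 and 0 FPKM. With a pseudocount of 1, Retn in muscle was at 0.99 for diet. No paired analysis was possible because each group had 1 library per organ, and no replicate could be left out. The depth limits low values such as Cfd in NCD-veh liver and Lep in NCD-veh muscle.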

Other observations

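Among 26 other proteins that fat tissue secretes, 21 were compared for diet in WAT. Of these, 6 were higher and 3 lower in HFD-veh than in NCD-veh, where 5.24% of 12208 genes were higher and 3.87% lower. The median log2 ratio of the 21 was 0.34, against 0.03 over all genes. Gdf15, among the higher ones, was at 0.199 FPKM in NCD-veh and 1.79 in HFD-veh, so it passed the filter only through HFD-veh. Ccl2, a chemokine that draws monocytes, was at 8.22, 49.3 and 22.8 FPKM in WAT of the NCD-veh, the HFD-veh and the HFD-ncls group. Sfrp5, a secreted Wnt inhibitor, was at 80.6, 230 and 208 FPKM, and Wisp2 at 1.90, 10.7 and 13.8. Among the lower ones were Agt (angiotensinogen), at 160.2, 45.6 and 54.2 FPKM, and Dpp4, at 19.1, 7.76 and 8.88. HFD-ncls against HFD-veh, 3 of 22 were higher in WAT (Lcn2 and Il6 among them) and 1 lower (Ccl2).

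In BAT, 5 of 15 were higher in HFD-veh than in NCD-veh and none lower, where 2.28% of 10443 genes were higher and 2.01% lower. The median log2 ratio of the 15 was 0.65, against -0.04 over all genes. Ccl2, Gdf15 and Lcn2 were under 1 FPKM in NCD-veh BAT and passed the filter only through HFD-veh, where they were high. The count and the median are thus not independent of the filter. HFD-ncls against HFD-veh, 2 of 14 were lower, where 1.7% of 10329 genes were lower and 0.261% higher. Ccl2 was at 0.175, 6.14 and 1.40 FPKM in BAT, in the same order, and Gdf15, a stress-induced hormone, at 0.239, 1.75 and 2.0.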
